A study of Mus musculus with 72 samples.

Results

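The comparison of Gnb5+/- with Gnb5+/+ atria rested on 12 libraries, 6 of each genotype, chosen by their sample titles out of 72 libraries in the series. RNA was sequenced from the atria of male C57BL/6J mice aged 18 weeks, from a line recovered from cryopreserved sperm in which exon 3 of Gnb5 had been removed in the germline. Gnb5+/- mice thus carried 1 intact and 1 deleted allele in every cell, and Gnb5+/+ mice carried 2 intact alleles. The 6 Gnb5-/- atria of the series entered the same fit, and the ventricles of the same 12 mice served for comparison between chambers. The 12 libraries are from 12 separate mice. Whole atria were processed, and the study describes this tissue as muscle mixed with cells of the sinoatrial and atrioventricular nodes. A library can also hold vessels, connective tissue and nerve, and the amount of each tissue in each library is not known. In such bulk RNA, fewer cells of a type and less RNA per cell cannot be told apart. The values are reads counted on genes, without normalization by the authors, and between 31865419 and 43013334 reads were counted per library. They are given below as CPM, the counts scaled to a common library size after TMM normalization, which corrects for differences in composition.

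Gnb5 encodes the fifth β subunit of heterotrimeric G proteins. Unlike the other β subunits, which pair with a γ subunit, it pairs with the R7 family of regulators of G protein signalling (RGS6, RGS7, RGS9 and RGS11), which are unstable without it. In the heart, the complex with RGS6 shortens the signal that acetylcholine from the vagus nerve sends through the M2 muscarinic receptor to the inhibitory G proteins, and from there to the GIRK potassium channel of pacemaker and atrial cells. The study asked what loss of this brake does to the control of heart rate. It also compared Gnb5+/- with wild-type hearts, with the tool DESeq2, and reported few differentially expressed genes. The present comparison asks what removal of a single copy does to the atrial transcriptome, and how large an effect the 12 libraries could have missed.

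The position of the deletion depends on how exons are counted. In the GENCODE M21 annotation of GRCm38, Gnb5 (ENSMUSG00000032192) lies on the plus strand of chromosome 9, from 75306288 to 75345876. Its transcript Gnb5-202 has 13 exons and opens its reading frame in exon 2, whereas Gnb5-201 has 12 exons and lacks that first coding exon, so that exon 3 of the former is exon 2 of the latter. Both candidate exons are shown in lower case because they mark what the mutant allele can lack, and which of them was deleted was not resolved here. Both are wholly coding, and neither length is a multiple of 3, with remainders of 1 and 2 bases. The first lies at chr9:75314272-75314383 (112 bases, plus strand) and the second at chr9:75327133-75327269 (137 bases, plus strand).
Gnb5-202 exon 3: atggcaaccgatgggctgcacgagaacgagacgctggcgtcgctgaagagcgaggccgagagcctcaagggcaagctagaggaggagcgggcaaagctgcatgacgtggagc
Gnb5-201 exon 3: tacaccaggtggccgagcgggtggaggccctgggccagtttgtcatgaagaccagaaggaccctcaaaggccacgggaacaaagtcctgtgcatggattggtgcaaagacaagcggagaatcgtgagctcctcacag

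Expression of Gnb5 followed the number of intact alleles. In the 6 Gnb5+/+ atria it ranged from 26.6 to 32.9 CPM with a median of 30.3, and in the 6 Gnb5+/- atria from 13.8 to 18.9 with a median of 15.1. The groups did not overlap, and all 6 heterozygous libraries lay below the wild-type range by more than the width of either group. The log2 fold change was -0.93 (SE 0.11, 95% interval -1.16 to -0.71, edgeR adjusted p 4.2e-04), which left 52.3% of the wild-type level (95% interval 44.7 to 61.2%). An exact permutation test gave p = 0.0022, the smallest that 6 mice against 6 allow. Gnb5-/- atria held 1.49 to 2.60 CPM, 6.18% of the wild-type mean. The Gnb5+/- mean of 15.5 ± 1.89 (SD, n = 6) differed by -0.23 CPM from the midpoint of the other genotypes, 15.8 CPM, with 2 heterozygous libraries above and 4 below it. The counts are for the whole gene, so reads from the deleted allele outside the missing exon were included.

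**Figure D1:**
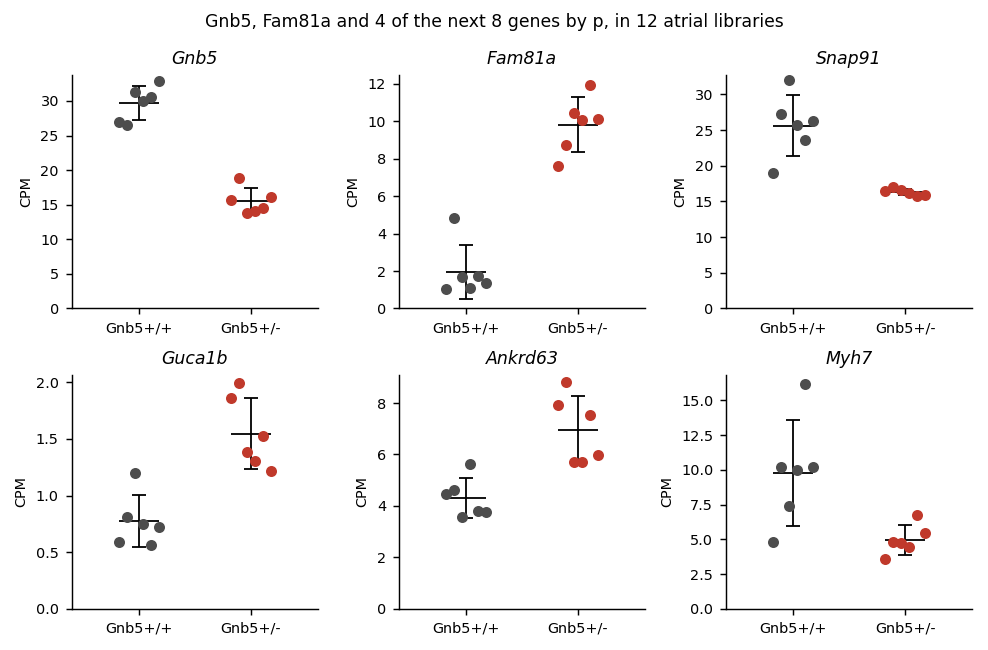
Normalized expression (CPM, linear axis from 0) of Gnb5, Fam81a, Snap91, Guca1b, Ankrd63 and Myh7 in 6 Gnb5+/+ (grey) and 6 Gnb5+/- (red) atrial libraries. Points are libraries in replicate order, horizontal bars are means and error bars are SD; the groups are apart in all panels except Myh7.

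Apart from Gnb5 itself, 1 gene passed the adjusted threshold of 0.05. Of the 16181 genes tested, 2 were called (0.0124%), Gnb5 and Fam81a. At an unadjusted p below 0.05 stood 1169 genes (7.22%), 639 of them higher (3.95%) and 530 lower (3.28%) in Gnb5+/- atria. For 32 genes (0.198%), every library of one genotype lay above every library of the other, 22 of them higher and 10 lower in Gnb5+/- atria. For a gene without any effect of genotype, the probability of such a separation is 0.0022, the smallest p of the exact permutation test. The share found was thus no larger than chance alone gives. Lack of overlap in a gene picked from all those tested is therefore by itself no evidence of a difference. Other tools and settings placed between 2 and 8 genes past the threshold, and Gnb5 and Fam81a were among them in every one.

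Fam81a, a protein-coding gene on the same chromosome 5.16 Mb from Gnb5, rose. Wild-type atria held 1.04 to 4.83 CPM (median 1.51) and heterozygous atria 7.64 to 11.9 CPM (median 10.1). The highest wild-type library was replicate 2, and the other 5 lay at or below 1.73 CPM, so the genotypes did not overlap. The log2 fold change was 2.36 (SE 0.28, 95% interval 1.78 to 2.94, adjusted p 4.2e-04 from edgeR), a 5.12-fold difference seen in 6 of 6 mice. Gnb5-/- atria held 8.57 to 13.4 CPM, with a log2 fold change of 2.59 against the same wild-type libraries.

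The 8 genes next in order of p did not pass in the edgeR test and are given as values. Snap91, which encodes a clathrin adaptor of synaptic vesicle recycling and lies 11.4 Mb from Gnb5, ranged from 15.8 to 17.1 CPM (median 16.3) in Gnb5+/- and from 19.0 to 32.0 CPM (median 26) in Gnb5+/+ atria. All heterozygous libraries lay below all wild-type ones, with replicate 1 the lowest of the wild types. Its log2 fold change was -0.65 (95% interval -0.90 to -0.40, adjusted p 0.14 from edgeR), and the adjusted p ranged from 9.96e-04 to 0.49 over the alternatives. Guca1b, a guanylate cyclase activator known from photoreceptors, ranged from 0.566 to 1.20 CPM (median 0.737) in wild-type and from 1.21 to 1.99 CPM (median 1.45) in heterozygous atria. The groups met without overlapping, with a log2 fold change of 1.00 (adjusted p 0.31, edgeR; 0.027 to 0.83 over the alternatives). Ankrd63 was also apart, at 3.55 to 5.63 CPM (median 4.13) against 5.69 to 8.83 CPM (median 6.77), a log2 fold change of 0.69.

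Kif18b, a kinesin of the mitotic spindle, ranged from 0.0737 to 0.346 CPM (median 0.249) in wild-type and from 0.413 to 2.59 CPM (median 0.759) in heterozygous atria. The highest value belonged to Gnb5+/- replicate 4, a library with lymphocyte transcripts described below. The log2 fold change of Kif18b was 2.17 and ranged from 1.64 to 2.36 over the alternatives. Fbxl13 was apart as well, at 0.283 to 0.641 CPM (median 0.563) against 0.747 to 1.38 CPM (median 0.992). Gpnmb, a glycoprotein of macrophages and other cells, ranged from 5.06 to 6.50 CPM (median 5.70) against 6.95 to 11.5 CPM (median 7.94), without overlap. The contractile genes Myh7 and Lmod2 completed the set and are described with their family.

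The interest of a comparison with so few calls lies in what it bounds. A 95% interval was placed around every log2 fold change from the same fit, so that it covered the spread between mice, counting error included. The median width on either side was 0.25 on the log2 scale, or 1.19-fold. For 6835 genes (42.2%) the whole interval lay inside a ratio of 5 to 4 in either direction, for 11552 (71.4%) inside 1.5-fold and for 14325 (88.5%) inside 2-fold. A test of equivalence within 1.5-fold, with Benjamini-Hochberg adjustment over all genes, was passed by 11960 genes (73.9%). The median log2 fold change over all genes was -0.0013, the median absolute value was 0.098, and 95% of genes lay between -0.43 and 0.69. The remaining genes are not shown to be unaffected, since a p that misses the threshold leaves every value inside its interval possible.

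The bound depended on expression. Among 2543 genes with a mean below 1 CPM, the median width was 0.72 and 4.64% had an interval inside 1.5-fold. Of the 4760 genes between 1 and 10 CPM, 63.1% did, with a median width of 0.35. Between 10 and 100 CPM the share was 94.9% of 7533 genes, and above 100 CPM it was 95% of 1345 genes, at widths of 0.19 and 0.18. Beyond 10 CPM the width thus changed little with the level. The shares of genes at an unadjusted p below 0.05 in these 4 bins were 7.94%, 7.69%, 6.41% and 8.77%.

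The other β subunits stayed within narrow bounds. Gnb1, the most abundant per length at 35 CPM per kb of exon in wild-type atria, ranged from 136 to 166 CPM (median 148) in Gnb5+/+ and from 136 to 153 CPM (median 146) in Gnb5+/- libraries. The genotypes overlapped, and the 95% interval of the difference reached at most 1.12-fold. Gnb2 lay at 40.5 to 68.3 CPM (median 63.8) against 58.2 to 72.7 CPM (median 63.7), with the low value in wild-type replicate 2, and its interval reached 1.22-fold. For Gnb4, at 14.7 to 17.5 CPM (median 16.4) against 15.2 to 19.5 CPM (median 17.2), it reached 1.21-fold. Gnb3, the rarest at 0.601 CPM per kb, ranged from 1.04 to 2.26 CPM (median 1.59) against 1.55 to 2.07 CPM (median 1.85) and was bounded at 1.59-fold. On the same scale Gnb5 stood at 9.53 CPM per kb in wild-type and 4.99 in heterozygous atria.

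The R7 RGS proteins are the partners of Gnb5, and RGS6 is the one known in vagal control of heart rate. Rgs6, at 9.29 CPM per kb in wild-type atria, was close to Gnb5 per length and exceeded Rgs7 at 3.04, Rgs11 at 0.223 and Rgs9 at 0.0728. It ranged from 82.6 to 105 CPM (median 91.4) in Gnb5+/+ and from 86.6 to 108 CPM (median 103) in Gnb5+/- atria. The groups overlapped over most of their range, with a log2 fold change of 0.12 (95% interval -0.04 to 0.27, at most 1.21-fold). Rgs7 lay at 15.3 to 20.4 CPM (median 18.3) against 15.6 to 20.4 CPM (median 17.1), also bounded at 1.21-fold. Rgs11, at 0.602 to 1.20 CPM in the 12 libraries, was bounded at 1.36-fold and Rgs9, under 1 CPM in all 12, at 1.87-fold.

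The list also holds membrane anchors of the R7 complex. Rgs7bp, which tethers the complex to the membrane, ranged from 4.62 to 9.29 CPM (median 4.80) in wild-type and from 3.75 to 5.96 CPM (median 4.37) in heterozygous atria, and its interval of -0.70 to 0.13 reached 1.62-fold. Gpr158, an orphan receptor that binds RGS7, lay at 7.86 to 16 CPM (median 11.2) against 9.11 to 15.2 CPM (median 11.2), bounded at 1.34-fold. Gpr179, known from retinal bipolar cells, had the only unadjusted p below 0.05 of the 7 tested members, at 0.221 to 0.570 CPM (median 0.388) against 0.300 to 1.16 CPM (median 0.617), where the groups overlapped. Rgs9bp was too low in counts to test.

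**Figure D2:**
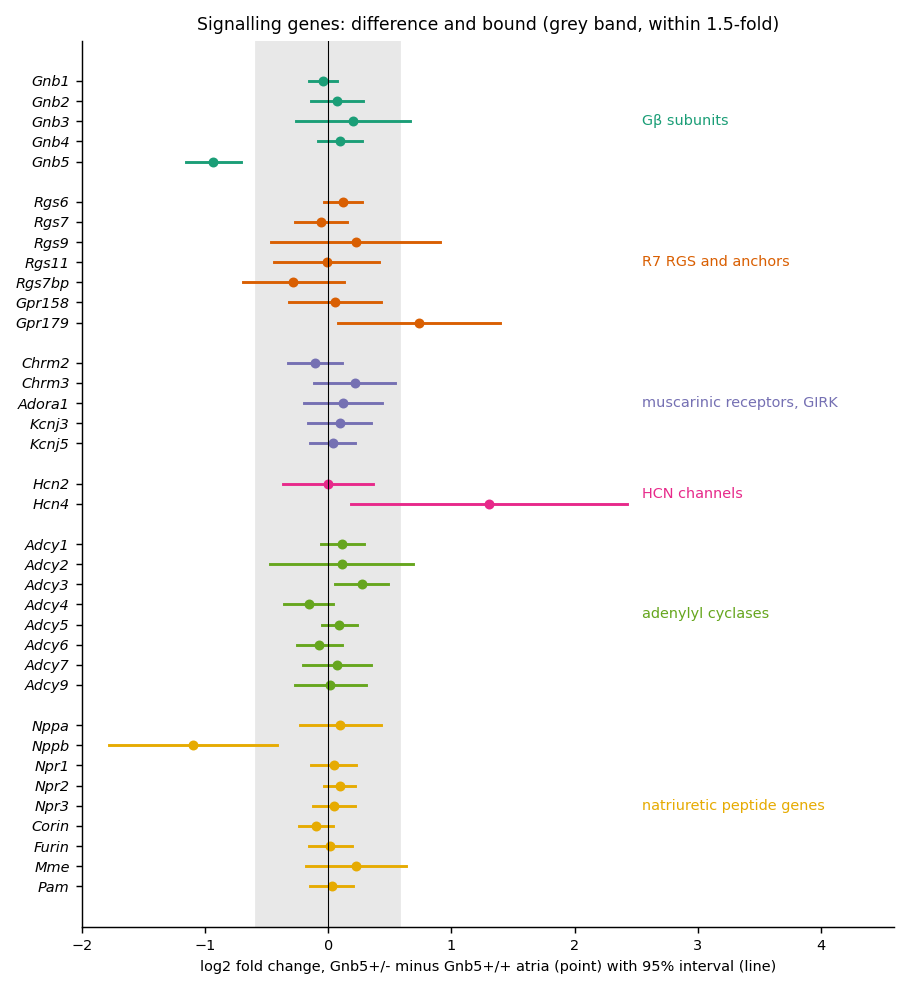
Log2 fold change of Gnb5+/- against Gnb5+/+ atria (points) with its 95% interval (lines) for members of 6 signalling lists, 6 libraries per genotype; the grey band marks a difference within 1.5-fold. Gnb5 lies wholly outside the band, and the intervals of Hcn4 and Nppb reach far beyond it. All 5 tested genes of the muscarinic and GIRK list, which includes the adenosine receptor gene Adora1, lie inside it.

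In the list of muscarinic receptors and GIRK channels, which includes an adenosine receptor, all 5 tested members of 10 had intervals inside 1.5-fold. So did 71.4% of all genes tested and 95% of those above 100 CPM. The other 5 members were too low in counts to test. Chrm2, the M2 receptor, ranged from 463 to 730 CPM (median 545) in Gnb5+/+ and from 413 to 618 CPM (median 532) in Gnb5+/- atria, with an interval of -0.33 to 0.11. Kcnj3, which encodes the GIRK1 subunit and was the most abundant member, ranged from 544 to 1065 CPM (median 798) against 760 to 959 CPM (median 904), with a bound of 1.27-fold. The genotypes overlapped in both genes. For Kcnj5 (GIRK4), Adora1 (the A1 adenosine receptor) and Chrm3 the bounds were 1.16, 1.35 and 1.46-fold.

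Other G protein genes showed no member past the adjusted threshold. Of the Gα subunits 12 of 16 were tested, with a median log2 fold change of 0.018, 0 at an unadjusted p below 0.05 and 10 inside 1.5-fold. Gnas, the stimulatory subunit and most abundant of them, ranged from 683 to 776 CPM (median 733) in wild-type and from 700 to 776 CPM (median 734) in heterozygous atria. These ranges coincided, and the 95% interval ran from -0.12 to 0.13. Among 12 Gγ subunits, 9 were tested and 6 lay inside 1.5-fold. Of the remaining RGS genes 12 of 17 were tested and 1, Rgs12 (0.22, unadjusted p 0.029 from edgeR), stood below 0.05.

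The sympathetic side and the second messengers it acts through gave a similar picture. Among 14 tested of 16 adrenergic receptors, GRK kinases and arrestins, 9 were inside 1.5-fold and 2 at an unadjusted p below 0.05. Those were Adra1b, an α1 receptor (log2 fold change 0.24), and the receptor kinase gene Grk4, at 2.68 to 3.69 CPM (median 3.23) in wild-type and 2.18 to 2.9 CPM (median 2.37) in heterozygous atria. The groups overlapped between 2.68 and 2.9 CPM, with a log2 fold change of -0.38 (adjusted p 0.61 from edgeR). Adrb3, which marks fat as well as heart, had the largest positive value of the list, 1.6, with an interval of -0.03 to 3.23. The adenylyl cyclases, 8 tested of 10, had a median of 0.080 and 7 inside 1.5-fold. Adcy3, at 5.93 to 8.25 CPM (median 6.60) against 7.44 to 9.48 CPM (median 8.14), was the only one at an unadjusted p below 0.05 (0.018, edgeR). Of 24 phosphodiesterases 19 were tested and 16 lay inside 1.5-fold.

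The pacemaker channels were less well bounded, with 1 of 3 tested genes inside 1.5-fold. Hcn4, which carries the funny current of the sinoatrial node and lies 16.4 Mb from Gnb5, ranged from 4.08 to 19.9 CPM (median 5.95) in Gnb5+/+ and from 13.5 to 33.4 CPM (median 25.2) in Gnb5+/- atria. Wild-type replicates 2 and 5 held 19.7 and 19.9 CPM and overlapped the heterozygous libraries, while the other 4 were at or below 6.86. Its log2 fold change was 1.30 with an interval that reached from 0.18 to 2.42, or up to 5.37-fold (adjusted p 0.65 from edgeR, exact permutation p = 0.017). Hcn2, at 5.0 to 8.94 CPM (median 6.03) against 4.73 to 8.26 CPM (median 6.42), overlapped and was bounded at 1.29-fold. In Gnb5-/- atria Hcn4 ranged from 1.77 to 36.6 CPM.

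Whole-atrium libraries can differ in how much nodal tissue they hold, and the sinus node markers are given beside Hcn4. All 8 (Hcn4, Shox2, Isl1, Tbx3, Tbx18, Cacna1g, Smoc2 and Vsnl1) had positive log2 fold changes, with a median of 0.33, 2 at an unadjusted p below 0.05 and none called. Summed, they came to 71.7 to 127 CPM (median 86.2) in wild-type and 108 to 142 CPM (median 130) in heterozygous atria, and wild-type replicates 2 and 5 were again the highest of their genotype at 127 and 119 CPM. The part of nodal content in these values was not tested.

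Among channels of excitation and repolarisation, no member was called. Of 14 sodium channel genes 10 were tested and 4 were inside 1.5-fold. Scn10a, linked to atrial conduction, lies on the same chromosome as Gnb5. It ranged from 8.44 to 18.8 CPM (median 14) against 14.3 to 27.6 CPM (median 20.8), and the groups overlapped between 14.3 and 18.8. The log2 fold change of Scn10a was 0.58 (95% interval 0.19 to 0.97, adjusted p 0.61 from edgeR). Of 25 Kv genes and subunits 21 were tested, 12 lay inside 1.5-fold and 0 had an unadjusted p below 0.05. The inward rectifier and KATP list had 6 of 7 tested genes inside 1.5-fold.

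The connexins form gap junctions between muscle cells, and 11 of 20 were tested. Gja5 (connexin 40), the atrial and conduction system member, ranged from 126 to 203 CPM (median 136) in Gnb5+/+ and from 175 to 250 CPM (median 213) in Gnb5+/- atria. The groups overlapped between 175 and 203, with a log2 fold change of 0.43 (95% interval 0.15 to 0.72, adjusted p 0.61 from edgeR). Gja1 (connexin 43) overlapped throughout, at 402 to 598 CPM (median 465) against 390 to 486 CPM (median 434). The calcium channel list had 3 of 16 tested members at an unadjusted p below 0.05, all with positive values, namely Cacna1g (0.29), Cacna1i (0.54) and Cacnb4 (0.60). For calcium handling in the sarcoplasmic reticulum all 21 genes were tested, with a median of -0.064 and 17 inside 1.5-fold, and Atp2a2, the calcium pump SERCA2a, was bounded between -0.23 and 0.13.

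Contractile genes had mostly negative values, without a call. All 14 thick filament genes were tested, 11 were below 0, and 3 had an unadjusted p below 0.05, namely Myh7, Myl3 and Myom1. Myh7, the slow myosin heavy chain of ventricle and stress, ranged from 4.77 to 16.2 CPM (median 10.1) in wild-type and from 3.59 to 6.72 CPM (median 4.78) in heterozygous atria. Wild-type replicate 1, at 4.77, was the library that overlapped the heterozygous range. The log2 fold change was -0.98 (95% interval -1.43 to -0.52, adjusted p 0.53 from edgeR) and passed the threshold under DESeq2 (0.027), with a replicate block (0.032) and in edgeR without wild-type replicate 1 (0.028). The last of these fits leaves out the library that overlapped, so its call adds no support. The replicate numbers used as the block join different animals, so that fit is not a paired comparison. Myh6, the main atrial myosin, was bounded between -0.30 and 0.05.

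Of the 18 thin filament genes 17 were below 0, with a median of -0.16 against -0.0013 for all genes tested, and 3 had an unadjusted p below 0.05. Lmod2, an actin nucleator that sets thin filament length, ranged from 322 to 452 CPM (median 359) against 243 to 325 CPM (median 262). The groups overlapped by 1 library each, with a log2 fold change of -0.42 (95% interval -0.63 to -0.21, adjusted p 0.61 from edgeR). Acta1, skeletal α-actin, ranged from 1.38 to 35.8 CPM (median 19.8) in wild-type and from 0.249 to 4.81 CPM (median 2.39) in heterozygous atria, where wild-type replicates 1 and 2 overlapped and the other 4 lay at or above 16.6 CPM. Its log2 fold change was -2.78 with an interval of -4.53 to -1.03. The third was Tpm1, at -0.26.

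Markers of ventricular muscle are given beside these genes. Their sum over 7 genes was 1815 to 2825 CPM (median 2276) in Gnb5+/+ and 1602 to 2058 CPM (median 1999) in Gnb5+/- atria, and all 7 log2 fold changes were below 0, with a median of -0.93 and 2 at an unadjusted p below 0.05. Most of the sum was Mybpc3, at 1215 to 1824 CPM in wild-type and 1156 to 1679 CPM in heterozygous atria. Myl2, the defining ventricular light chain, ranged from 1.62 to 917 CPM in wild-type and from 1.89 to 417 CPM in heterozygous atria. In wild-type replicate 3, with Myl2 at 1.62 CPM, Mybpc3 stood at 1802 CPM, so the sum is no measure of ventricular tissue. With log2 Myl2 as a covariate Gnb5 and Fam81a were again the calls. Myl2 is a member of both the ventricular and the thick filament list, and the part of ventricular tissue in the contractile genes was not tested. Of the atrial markers 8 of 8 lay inside 1.5-fold with a median of 0.057.

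Of 10 natriuretic peptide genes 9 were tested and 7 lay inside 1.5-fold, the others being Nppb and the peptidase gene Mme (bound 1.55-fold). Nppa, the atrial natriuretic peptide, overlapped at 10759 to 14972 CPM (median 13026) against 11036 to 19529 CPM (median 13211). Nppb, the B-type peptide released on stretch, ranged from 165 to 610 CPM (median 258) in wild-type and from 110 to 229 CPM (median 126) in heterozygous atria, with only replicate 3 of the heterozygous libraries above 165 CPM. Its log2 fold change was -1.10 (95% interval -1.78 to -0.42, adjusted p 0.61 from edgeR). The renin-angiotensin list had 8 of 10 tested genes inside 1.5-fold, with Ace at 0.31 (unadjusted p 0.042 from edgeR).

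Among regulators, 22 of 23 chamber and conduction transcription factor genes were tested with a median of -0.007, and Id2 alone had an unadjusted p below 0.05 (log2 fold change 0.28). All 19 clock genes were tested, 0 stood at an unadjusted p below 0.05 and 11 were inside 1.5-fold. Immediate early genes, which respond to stress and to handling of the tissue, had 0 of 18 tested genes inside 1.5-fold and 8 inside 2-fold. Their median was -0.48, 17 of 18 were below 0, and Jun, Jund, Egr3 and Atf3 had an unadjusted p below 0.05. Atf3, a stress-induced factor, stood at 54.2 and 49.1 CPM in wild-type replicates 2 and 5, at 5.51 to 11.6 CPM in the other 4 and at 3.22 to 12.8 CPM in heterozygous atria. Summed, they came to 287 to 997 CPM (median 596) in wild-type and 250 to 852 CPM (median 388) in heterozygous atria, an overlap over most of the range.

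Structural and metabolic lists were large and mostly bounded. Of 37 extracellular matrix genes, all tested, 30 were inside 1.5-fold, and 2 stood at an unadjusted p below 0.05, Mmp2 at 0.23 and Ctgf at -0.79. All 36 nuclear genes of respiratory complex I were tested, 35 were inside 1.5-fold, 0 had an unadjusted p below 0.05 and the median was -0.042. For fatty acid metabolism 24 of 30 lay inside 1.5-fold with a median of -0.11, and Fabp3, Ppara and Ppargc1a, which code for a fatty acid carrier and regulators of oxidation, stood at -0.35, -0.33 and -0.26. The 8 tested genes of the mitochondrial genome had a median of -0.23 with 3 inside 1.5-fold, and the mitochondrial share of the counts was 23.4 to 34.5% in Gnb5+/+ and 17.5 to 28.5% in Gnb5+/- libraries. Of 29 BMP pathway genes 25 were tested and 19 lay inside 1.5-fold.

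Together, the 28 family lists named 494 genes, of which 425 passed the filter on low counts. Without Gnb5, 424 remained, edgeR called 0, and 34 (8.02%) had an unadjusted p below 0.05, against 7.22% of all genes tested. Myh7 was called by DESeq2, with the replicate block and without wild-type replicate 1. The whole interval lay inside a ratio of 5 to 4 for 27.8%, inside 1.5-fold for 69.6% and inside 2-fold for 88.2%, against 42.2%, 71.4% and 88.5% of all genes. The lowest list median was -0.48, for the immediate early genes, and 21 of 28 were within 0.1 of 0 on the log2 scale. Scaling by library totals alone moved the median of all genes to 0.087 and changed the sign of 6 list medians, while RLE factors changed none.

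**Figure D3:**
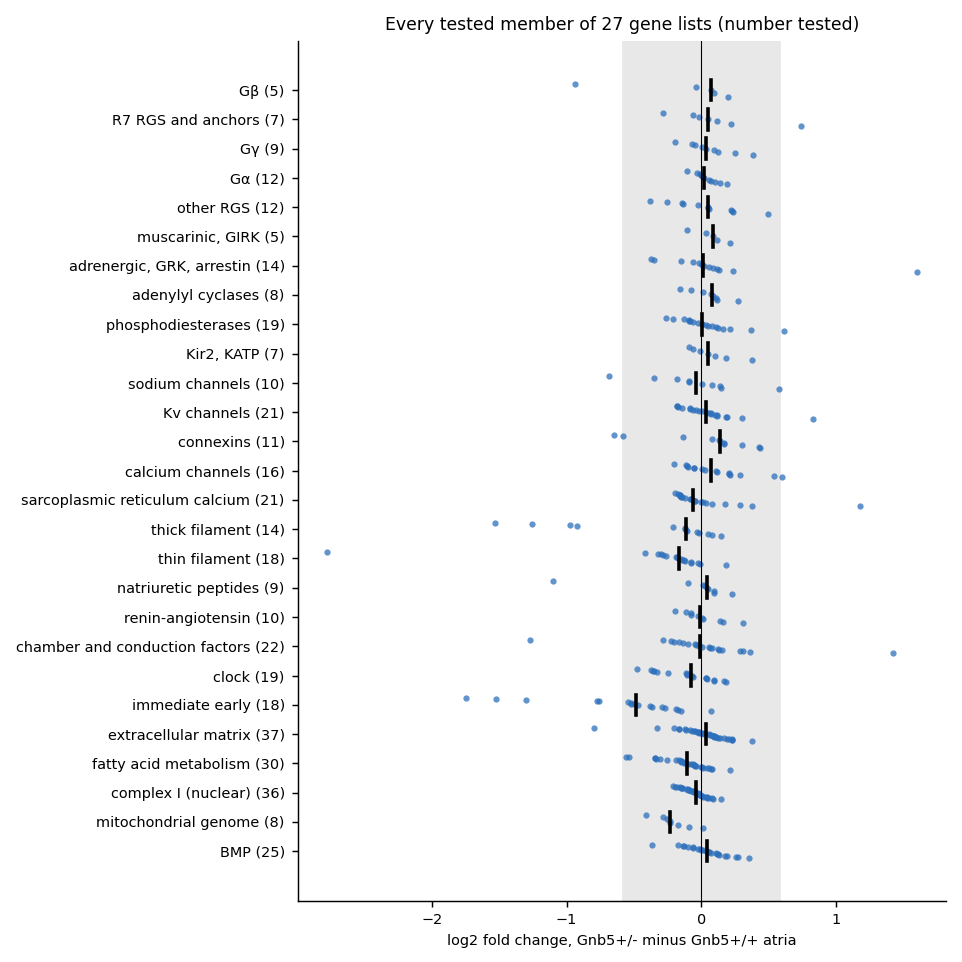
Log2 fold change of Gnb5+/- against Gnb5+/+ atria for each tested gene (blue points) of 27 lists, with the number tested in brackets, the list median (black bar) and a difference within 1.5-fold (grey band). Points cluster around 0 in most lists, and the immediate early genes, with a median of -0.48, stand furthest to the left.

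The 15 genes that the study named in the heart were looked at as well, a list in part chosen on these samples and so no independent evidence of direction. All 15 were tested, 9 lay inside 1.5-fold and 4 had an unadjusted p below 0.05, namely Myh7, Lmod2, Scn10a and Drd2. Drd2, the D2 dopamine receptor, ranged from 3.03 to 13 CPM (median 6.81) in wild-type and from 8.33 to 12.9 CPM (median 10.4) in heterozygous atria, wholly within the wild-type range. The log2 fold changes of Npr3, Comp and Agt were 0.05, 0.23 and -0.08 in Gnb5+/- atria, beside 0.39, 0.86 and -0.62 in Gnb5-/- atria against the same wild-type libraries. Tnnt2 (-0.08), Lrrc10 (-0.17), Tbx18 (0.16) and Ryr1 (1.18) made up the remainder outside the Gβ and RGS families, and Ryr1 lay below 0.63 CPM in all 12 libraries.

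Genes on chromosome 9 were also described by their distance from Gnb5. Without Gnb5, 100 of 932 tested genes of the chromosome (10.7%) had an unadjusted p below 0.05, against 7.0% of 15248 genes elsewhere. The share was 19.7% of 71 genes within 5 Mb of Gnb5, 14.9% of 47 genes from 5 to 10 Mb, 12.1% of 149 genes from 10 to 20 Mb, 10.4% of 404 genes from 20 to 40 Mb and 7.28% of 261 genes beyond. These shares are descriptive, since neighbouring genes are not independent. Of the 20 tested genes nearest Gnb5, 10 on each side, 13 had positive and 7 negative values, 13 were inside 1.5-fold, and Bmp5, Lysmd2, Myo5c and Scg3 had an unadjusted p below 0.05. Lysmd2, 0.28 Mb away, ranged from 10.1 to 14.5 CPM (median 11.7) in wild-type and from 14.1 to 18.1 CPM (median 15.3) in heterozygous atria, overlapping only between 14.1 and 14.5. Its log2 fold change was 0.36 (95% interval 0.17 to 0.55, adjusted p 0.61 from edgeR).

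**Figure D4:**
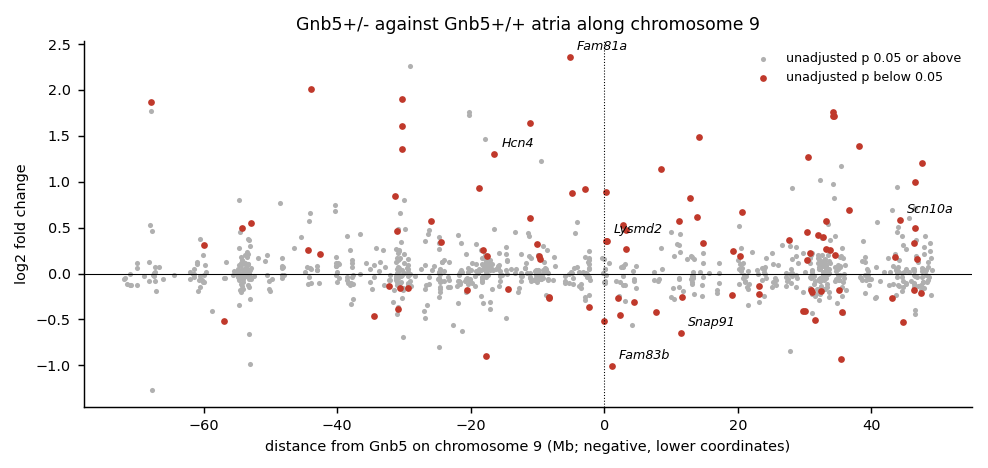
Log2 fold change of Gnb5+/- against Gnb5+/+ atria for 932 genes of chromosome 9 by distance from Gnb5 in Mb (dotted line at 0). Red points have an unadjusted p below 0.05, which 19.7% of genes within 5 Mb and 7.28% of genes beyond 40 Mb had.

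In the edgeR fit, Gnb5-/- against Gnb5+/+ atria called 41 of 16181 genes (0.253%), 26 of them on chromosome 9 besides Gnb5. The study, with DESeq2, reported more genes for this contrast. The Gnb5+/- and Gnb5-/- comparisons share the wild-type libraries, so their values for these genes are only set side by side. Snap91 had -2.22 in Gnb5-/- and -0.65 in Gnb5+/- atria, Myo5c -1.51 and -0.51, Bmp5 1.33 and 0.35, and Lysmd2 0.66 and 0.36. For Rpl29, which encodes a ribosomal protein, the values were -3.29 and -0.43, and for Bfsp2, a lens filament gene, -2.30 and 0.15. Of the 26 genes, the heterozygous log2 fold changes ran from -1.01 (Fam83b) to 2.36 (Fam81a). An unadjusted p below 0.05 was found for 17, against 7.22% of all genes tested and 10.7% of chromosome 9 genes. The 26 genes were selected on the shared wild-type libraries, so this count is no independent evidence of a dose effect.

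In some genes of chromosome 9 single mice departed from their genotype, a pattern chosen after the values were seen. Rpl29, 31.1 Mb from Gnb5, ranged from 8.54 to 10.1 CPM in 5 wild-type atria and stood at 4.58 CPM in replicate 1, while the heterozygous libraries held 4.57 to 6.34 CPM except for replicate 2 at 9.45 CPM. Hemk1, a methyltransferase gene 32.0 Mb away, ranged from 8.99 to 11.4 CPM in the same 5 wild types and stood at 15.7 CPM in replicate 1. Heterozygous replicates 2 and 4 had 12.4 and 10.4 CPM of it, and the other 4 had 15.3 to 19.3 CPM. At Gnb5 itself all 3 mice lay with their own genotype, at 26.9 CPM in wild-type replicate 1 and at 18.9 and 14.1 CPM in heterozygous replicates 2 and 4.

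The processed pseudogene Gm11868 on chromosome 4 made the same mouse stand apart most clearly. Its best match among protein-coding transcripts was Cyb5r4, on chromosome 9 and 11.7 Mb from Gnb5, with 98.0% identity over 1485 aligned bases, so reads of the parent gene and the pseudogene can be confused in counting. All 6 heterozygous atria held 4.63 to 6.65 CPM and 5 wild types 0.0315 to 0.157 CPM, while wild-type replicate 1 held 4.89 CPM. Oaz2-ps, a pseudogene on chromosome 3 whose best match is Oaz2 on chromosome 9, 9.62 Mb from Gnb5 (93.6% identity over 564 bases), had 0.508 to 0.744 CPM in heterozygous atria, 0.522 CPM in wild-type replicate 1 and at most 0.0369 CPM in the others. Neither gene passed in the edgeR fit (adjusted p 0.61 for both). With all libraries kept, limma-voom called both, and edgeR called both without wild-type replicate 1. That library alone among the wild types lay with the heterozygous mice at both genes, which were picked with their values known. Leaving it out thus favoured a call in advance, and the call adds no support. Without that library 6 genes were called in place of 2, the others being Snap91 and Myh7, and 14.5% of chromosome 9 genes and 9.98% of the rest had an unadjusted p below 0.05.

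The ventricles of these mice gave similar values, except for heterozygous replicate 4 at Rpl29, which stood apart in ventricles alone. For Gm11868 the ventricles of wild-type replicate 1 held 4.15 CPM, the other wild types at most 0.0899 CPM and the heterozygous mice 2.9 to 4.07 CPM. For Rpl29 the ventricles of wild-type replicate 1 held 4.67 CPM against 6.72 to 8.39 CPM in the other wild types, and those of heterozygous replicates 2 and 4 held 6.02 and 10.9 CPM against 3.26 to 4.08 CPM in the other 4. Hemk1 in these ventricles was 19.7 CPM in wild-type replicate 1, 9.87 to 14.7 CPM in the other wild types, and 13 and 13.8 CPM in heterozygous replicates 2 and 4 against 17.1 to 22.3 CPM in the remainder. Reads outside genes made up 2.85% in the ventricular library of heterozygous replicate 4, against 4.41 to 5.71% in the other ventricular libraries. The cause of these placements was not tested.

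**Figure D5:**
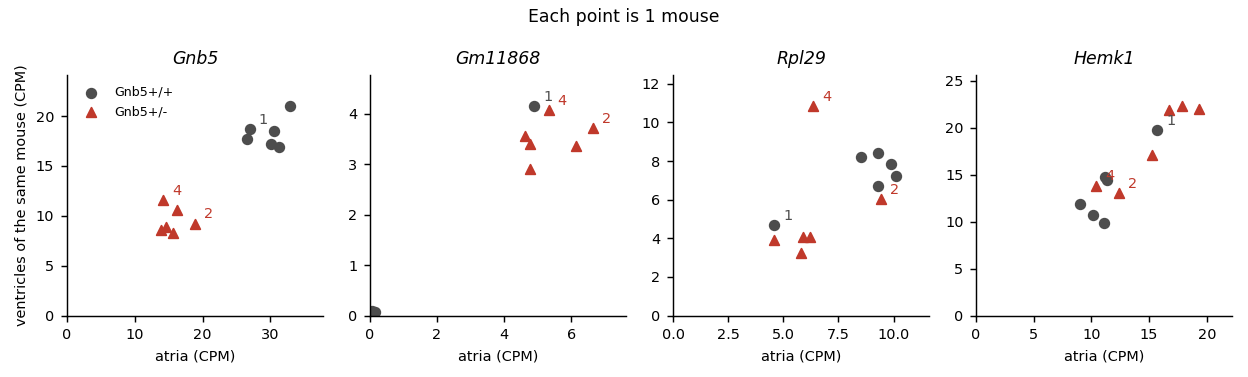
CPM of Gnb5, Gm11868, Rpl29 and Hemk1 in atria (x axis) and ventricles (y axis) of the same 12 mice, Gnb5+/+ as grey circles and Gnb5+/- as red triangles, both axes linear from 0. The numbers mark wild-type replicate 1, which lies with the heterozygous mice in all panels except Gnb5, and heterozygous replicates 2 and 4. Replicates 2 and 4 lie below the other heterozygous mice at Hemk1 in both tissues. At Rpl29, heterozygous replicate 2 is high in both tissues and replicate 4 in ventricles.

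Marker genes of other cell types set Gnb5+/- replicate 4 apart. It had 170.5 CPM of lymphocyte and thymus markers summed, against 8.32 to 19.8 CPM in the other 11 libraries, including Rag1 at 60.2 and Dntt at 29.5 CPM, which mark developing lymphocytes and had medians of 0 in wild-type atria. At lower levels, heterozygous replicates 2 and 5 held 2.92 and 1.77 CPM of Rag1 and 1.05 and 0.332 CPM of Dntt. Wild-type replicate 5 held 0.126 and 0.315 CPM of these genes. Of 7 tested lymphocyte genes 4 had an unadjusted p below 0.05, and the median of the list was 1.36 with and 0.41 without heterozygous replicate 4. The fat markers summed to 12.8 to 45.1 CPM (median 28) in Gnb5+/+ and 42.4 to 132 CPM (median 50.4) in Gnb5+/- atria, again highest in replicate 4. All 8 tested genes were above 0, with a median of 1.29, and of 0.90 without heterozygous replicate 4. Among heterozygous libraries, Lep (41.9 CPM), Cidec, Adipoq and Plin1 were highest in replicate 4, while Cfd, Pck1, Cidea, Retn and Ucp1 were not. By a stress gene rather than a cell type, wild-type replicates 2 and 5 also stood apart, as they held 51.7 and 81.9 CPM of the heat shock gene Hspa1a, against at most 5.96 CPM in the other 4. Lung markers other than Ager were at or near 0 in every library. Without heterozygous replicate 4 the calls were again Gnb5 and Fam81a, and 951 genes stood at an unadjusted p below 0.05.

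For the remaining cell types no marker was called. Macrophage markers had 6 of 7 inside 1.5-fold with a median of 0.17, all 7 above 0 and 2 at an unadjusted p below 0.05, and endothelial markers 7 of 7 with a median of 0.022. Mesothelium, smooth muscle, glia, autonomic neurons, blood and skeletal muscle had medians of 0.063, 0.016, 0.079, 0.019, 0.099 and -0.091, and 0 of 6 blood markers lay inside 1.5-fold. Of the neuronal markers, Chat, Slc18a3 and Slc5a7, which define cholinergic neurons, were at or below 0.343 CPM in the 12 libraries but for Slc5a7 at 1.62 CPM in Gnb5+/- replicate 4.

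Ventricles of the same mice allowed the effect of the heterozygous genotype to be compared between chambers. With each mouse as a block, edgeR called 0 of 16051 genes for a difference between atria and ventricles, and 663 had an unadjusted p below 0.05. For Gnb5 the ventricular log2 fold change was -0.95, from 16.9 to 21 CPM (median 18.1) in wild-type to 8.29 to 11.6 CPM (median 9.04) in heterozygous mice. The difference between chambers on the log2 scale was 0.01 (SE 0.14, adjusted p 1.0 from edgeR). Fam81a in ventricles ranged from 5.25 to 10.8 CPM (median 9.37) in wild-type and from 14.5 to 22.5 CPM (median 17.8) in heterozygous mice, without overlap, a log2 fold change of 1.12. In the joint fit of both chambers, which scales and weighs the libraries anew, the atrial log2 fold change exceeded the ventricular one by 1.34 (SE 0.25, adjusted p 0.26 from edgeR). Hcn4 had a ventricular value of -0.06 and a difference in the joint fit of 1.6 (SE 0.27, adjusted p 0.26 from edgeR). In ventricles 3 of 14866 genes were called, Gnb5, Fam81a and Oaz2-ps.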

How the data were processed

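Both atria and ventricles came from 18 mice, and the 12 atrial libraries of Gnb5+/- and Gnb5+/+ mice are the ones described. The deposited values are raw counts per Ensembl gene: the authors made stranded single-end libraries, trimmed adapters with cutadapt 1.8, removed ribosomal RNA and low-complexity reads, aligned reads to GRCm38 with STAR 2.5.3a and counted them with HTSeq 0.9.1, with versions per the submitters' processing notes. Of 53715 gene identifiers, 53620 were matched to GENCODE M21. Reads outside genes (5.63 to 6.63% of the total) were left out. Brain libraries were not used here, and some listed genes are not reported here.

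Counts were scaled by TMM, filtered with filterByExpr (count minimum 10) and fitted over all 18 atrial libraries with genotype as the single term (edgeR 4.0.16, glmQLFit and glmQLFTest, R 4.3.3). A gene is called at a Benjamini-Hochberg adjusted p below 0.05. SE is the absolute log2 fold change over the square root of F, and 95% intervals use the t quantile of the fit's degrees of freedom. They cover the spread between mice, counting error included. Equivalence used 2 one-sided tests. The exact permutation tests were two-sided, on log2 CPM with a prior count of 2. Ranges not overlapping were read from CPM. The difference between chambers was tested as an interaction with mouse as a block. Pseudogenes were matched with BLAST+ 2.17.0+. The fit was tested on simulated data.

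Named genes were the called genes, the 8 next by p, all tested Gβ and R7 RGS members, the most abundant and the extreme members of each other list with those at an unadjusted p below 0.05, the study's heart genes, the 10 genes nearest Gnb5 on each side, and chromosome 9 genes called in Gnb5-/- atria; not each is described. Oaz2-ps, Gm11868, Mrpl48-ps, Camk1g, Fbxw18 and marker genes given outside that rule were picked with their values known. The members and gene lists were chosen with earlier results of these data known. Alternatives were DESeq2 1.42.0, limma-voom (limma 3.58.1), RLE factors, library totals, other filters, robust empirical Bayes, the 12 libraries alone, a replicate block, 1 surrogate variable (sva 3.50.0) and each library left out. Chosen after seeing the data were the mitochondrial share, log2 Myl2 or log2 Hcn4 as covariates, mitochondrial genes left out, and 2 libraries left out together.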

Additional observations from a re-analysis of the deposited data

Results flagged for a closer look

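Within groups of 6 libraries, 128 sets of values were examined for a library set apart from the rest by Dixon's criterion, and 11 were found. Chance flags about 1 in 20 groups. Among single genes these were Fam81a in Gnb5+/+ replicate 2 (4.83 CPM, next 1.73), Kif18b in Gnb5+/- replicate 4 (2.59 CPM), Gnb2 in Gnb5+/+ replicate 2 (40.5 CPM, next 63.1), Rgs6 in Gnb5+/- replicate 1 (86.6 CPM, next 101) and Rgs7bp in Gnb5+/+ replicate 2 (9.29 CPM, next 4.94).

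Among summed lists, Gnb5+/+ replicate 2 was high in genes of the mitochondrial genome (405000 CPM, next 278500) and low in thick filament genes (48430 CPM, next 53200). Gnb5+/- replicate 1 was low in the R7 RGS list (122 CPM, next 137), and replicate 2 was high in the natriuretic list (32070 CPM, next 24090). Gnb5+/- replicate 4 was high in lymphocyte and thymus markers (170.5 CPM, next 19.8) and in fat markers (132 CPM, next 58.8). The share of tissue or handling in these values was not tested.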

How the results depend on the processing

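The number of genes called was 2 in the edgeR fit, 8 with DESeq2's Wald test, 5 with limma-voom, 8 with Gnb5+/- replicate 4 and Gnb5+/+ replicate 1 left out together, and between 2 and 6 when each library was left out in turn, with 6 only without Gnb5+/+ replicate 1. Gnb5 and Fam81a were called in all 27 alternatives. Gnb5 ranged from -1.03 to -0.82 and Fam81a from 2.20 to 2.83 on the log2 scale. The number of genes with an interval inside 1.5-fold, 11552 in the edgeR fit, ranged from 11078 to 11439 without each library and from 10557 to 12743 elsewhere. Of the 8 genes next by p, Snap91 also passed with DESeq2, limma-voom, without Gnb5+/+ replicate 1 and without both libraries, Myh7 with DESeq2, the block and without Gnb5+/+ replicate 1, and Guca1b, Ankrd63 and Kif18b with DESeq2 alone. DESeq2 further called Mrpl48-ps, which did not pass edgeR's filter, limma-voom and both fits without Gnb5+/+ replicate 1 called Gm11868 and Oaz2-ps, and the fit without both libraries called Camk1g, Hemk1 and Fbxw18. The causes of these differences were not tested.

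The replicate numbers join different animals, and same-numbered deviations correlated between -0.19 and 0.14, above 0.1 in 1 of 6 pairs, with 0 of 6 heterozygous libraries closest to their own number. With the replicate block 3 genes were called, Gnb5 (-0.93), Fam81a (2.36) and Myh7 (-0.92), and 11389 had an interval inside 1.5-fold. Of genes below 1 CPM 4.64% were bounded within 1.5-fold, and the parts of counting error and of spread between mice in that were not separated.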

Other observations

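Heat shock and chaperone genes, a list drawn up after the values were seen and so given without a test, were lower in Gnb5+/- atria in all 23 members, with a median log2 fold change of -0.39 against -0.0013 for all genes tested. The values ran from -2.36 for Hspa1a to -0.06 for Hspb8, and none of the 23 was called. Hspa1a held 51.7 and 81.9 CPM in wild-type replicates 2 and 5, against at most 5.96 CPM in the other wild types. Hsph1, an HSP110 cochaperone, ranged from 65.1 to 206 CPM (median 139) in wild-type and from 54.4 to 84.7 CPM (median 72.3) in heterozygous atria. Hsp90aa1, the inducible HSP90, ranged from 98.4 to 233 CPM (median 151) against 81.0 to 128 CPM (median 98.8). The ranges overlapped in both genes. Wild-type replicates 2 and 5, high in Hspa1a, were also high in Hcn4, and the part of tissue handling was not tested.

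Beside the fat markers, 3 genes of fat cells or lipid metabolism are given, picked after their values were seen. The ranges of Fasn and Pnpla3 did not overlap, which for genes picked in this way is by itself no evidence of a difference. Fasn, fatty acid synthase, ranged from 52.7 to 98.8 CPM (median 80.5) in wild-type and from 103 to 290 CPM (median 133) in heterozygous atria (log2 fold change 0.97, adjusted p 0.71 from edgeR). Pnpla3, a lipase-like gene under insulin control, ranged from 1.26 to 2.21 CPM (median 1.39) against 2.21 to 4.14 CPM (median 2.61). Adipoq, which defines fat cells, ranged from 0.679 to 5.98 CPM (median 2.86) against 4.14 to 19.7 CPM (median 5.40), so that the groups overlapped. Gnb5-/- atria held 1.14 to 37.9 CPM of it.

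The pseudogene Mrpl48-ps divided the wild-type mice themselves. Wild-type replicates 1, 3 and 6 held 3.61, 3.11 and 4.10 CPM in atria and 1.65, 1.93 and 1.6 CPM in ventricles, while the other 3 wild types and all 6 heterozygous atria held at most 0.171 CPM. Its best match was Mrpl48 on chromosome 7 (98.1% identity over 636 bases).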
